A study of Homo sapiens with 35 samples.

Results

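The 6 genes PNRC1, PIK3IP1, ABTB1, TXNIP, KLHL24 and YPEL3 were followed through 48 h of culture of human embryonic stem cells. They are 6 of 58581 genes in the deposited count table, and all 6 passed the filter on low counts in each of the 3 fits. They were chosen by their CPM with results known: the first 3 listed, PNRC1, PIK3IP1 and ABTB1, were seen to be higher in E8 medium at 48 h than at the start, and TXNIP, KLHL24 and YPEL3 were listed with them. The difference between the start and 48 h in E8 is therefore the basis of the choice and is described below without a test. Poly(A) RNA of the established line H9 was sequenced in 35 libraries that form 25 groups. The cells had been grown in E8 on Matrigel and were plated as single cells at t0. They were then kept in E8, the pluripotency control, in E6, the control for spontaneous differentiation, or in BA, which is E6 with BMP4 and Activin A (40 ng/mL each). All groups thus share one cell line, the E8 culture before t0 and the single-cell plating. Libraries were taken every 6 h up to 48 h. Replicates, 3 in each case, exist for t0, for all media at 48 h and for BA at 24 h; the remaining 20 groups are single libraries. No label describes the replicates as separate cultures, so p-values measure the spread between these libraries, which may be technical.

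E8 and E6 are defined media for human pluripotent cells, and E6 lacks the FGF2 and TGF-beta that E8 holds. Insulin, FGF and other growth factors act through PI3 kinase and AKT, which keep FOXO transcription factors out of the nucleus. When that signal is low, FOXO factors enter the nucleus and raise genes that slow growth and insulin signalling. Glucose enters the picture through MondoA, a sensor of phosphorylated glucose that raises the arrestin-family genes TXNIP and ARRDC4, whose proteins limit glucose uptake. Among the 6 genes, PIK3IP1 encodes a membrane protein that inhibits PI3 kinase. TXNIP binds thioredoxin and restrains glucose transporters. PNRC1 encodes a small nuclear protein first described as a coactivator of nuclear receptors. YPEL3 belongs to the Yippee family of zinc-binding proteins and slows growth when overexpressed. ABTB1 carries ankyrin repeats and BTB domains, and KLHL24 is a BTB and kelch protein that brings substrates to a cullin ubiquitin ligase.

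In GENCODE release 29 on GRCh38, all 6 genes are protein coding. PNRC1 (ENSG00000146278) lies on the plus strand at chr6:89080751-89085160. KLHL24 (ENSG00000114796) and ABTB1 (ENSG00000114626) are both on the plus strand of chromosome 3, at chr3:183635568-183684477 and chr3:127672935-127680920. TXNIP (ENSG00000265972) lies on the minus strand at chr1:145992435-145996600. PIK3IP1 (ENSG00000100100) is on the minus strand at chr22:31281593-31292534 and overlaps its antisense gene PIK3IP1-AS1. YPEL3 (ENSG00000090238) is on the minus strand at chr16:30092314-30096915 and overlaps the antisense gene AC012645.1. Whether the counting used strand is not given in the sources used here, so reads in the stretch that both genes share, 36 bases in PIK3IP1 and 486 in YPEL3, cannot be told apart from reads of the antisense gene. Per kilobase of exon, TXNIP had the highest mean level over replicate 1 and the single libraries, 9.07 CPM per kb (CPM, counts scaled to a common library total with TMM factors). On that scale PNRC1 followed at 4.63, KLHL24 at 3.91, YPEL3 at 1.92, PIK3IP1 at 1.27 and ABTB1 at 1.15 CPM per kb. The order was another one over the 10 libraries of replicates 2 and 3, with TXNIP at 10.7 CPM per kb, YPEL3 at 9.06, PNRC1 at 8.91, KLHL24 at 2.80, PIK3IP1 at 2.78 and ABTB1 at 1.90.

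RefSeq promoter windows (GRCh38.p14, 250 bases before to 50 after a start site) were matched for 5 of the 6 genes, with ABTB1 unmatched. Both strands were searched for GTAAACA, a sequence that FOXO and other forkhead proteins bind. The carbohydrate response element, through which MondoA acts, was searched as a pair of CACGNG sequences 5 bases apart, a pattern written with that element of TXNIP known. CACGTG and TGACGTCA were searched as well. None of the 4 motifs overlapped another match in these windows. GTAAACA lay in a window of TXNIP, PIK3IP1 and YPEL3, against 3.42% of 35116 promoter windows of the same length. The carbohydrate response element pattern lay in TXNIP, against 0.057% of windows. CACGTG, held by 7.26% of windows, and TGACGTCA, held by 1.85%, were in none of the windows of these genes. The windows of PNRC1 and KLHL24 held none of the 4. TXNIP and PIK3IP1 each had a further window, with start sites at 145995744 and 31292534, that held 0 matches. The shares above are per window, so both genes had a further chance of a match. The stretches with a match are shown 5′ to 3′ on the minus strand with matches in capitals.
TXNIP, chr1:145996580-145996729, the 150 bases before the start site: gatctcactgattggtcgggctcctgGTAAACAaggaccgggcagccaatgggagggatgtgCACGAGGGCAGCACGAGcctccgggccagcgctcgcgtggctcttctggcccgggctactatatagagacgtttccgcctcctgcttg
PIK3IP1, chr22:31292459-31292538, 50 bases before to 30 after the second listed start site: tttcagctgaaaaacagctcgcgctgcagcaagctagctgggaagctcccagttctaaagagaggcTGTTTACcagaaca
YPEL3, chr16:30096184-30096263, 50 bases before to 30 after the start site: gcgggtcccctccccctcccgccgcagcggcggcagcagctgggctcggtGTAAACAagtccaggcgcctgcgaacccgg
In TXNIP, GTAAACA began 124 bases and the carbohydrate response element match 88 bases before the start site. In YPEL3, GTAAACA began at the first base of the RefSeq start site used, which lies 702 bases inside the GENCODE gene. In PIK3IP1, the match was on the opposite strand, read here as TGTTTAC, and began 17 bases into the transcript. These matches are letters in a window and do not show that a factor was bound.

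Library totals ran from 11793453 to 37191969 counts. Every library of replicates 2 and 3 (10 libraries, from 26097462 counts) was deeper than every library of replicate 1 or of the single groups (25 libraries, up to 22115047). The share of counts in mitochondrial genes was 1.35 to 2.51% in the 25 libraries and 2.38 to 5.51% in the 10. Within replicates 2 and 3 this share was 4.43 to 5.51% at t0 and 2.38 to 3.68% at 48 h, so it moved together with the contrast between t0 and 48 h. Its part in the results was not tested. Some single libraries stood apart. CDH1, the epithelial cadherin, was at 18.2 CPM in E8 at 18 h, 24.2 in E8 at 36 h and 22.1 in BA at 42 h, against 101 to 134 CPM in the other E8 libraries from 6 to 42 h and 96.4 to 192 CPM in the other BA ones. In the same 3 libraries SLC16A3, a lactate exporter, was at 14.6, 46.1 and 225 CPM, and BNIP3, a mitophagy receptor, at 73.0, 159 and 235 CPM, each above both neighbouring hours of the medium. These 3 genes were named after their values were seen. E6 at 18 h had a median correlation of 0.91 with the other E6 libraries of its series across genes, against 0.973 to 0.992 for the rest. Slopes and matched-hour differences are given below with and without these 4 libraries where they matter. The pluripotency markers POU5F1 (290.6 to 3279 CPM) and LIN28A (638 to 2264 CPM) were present in every library. The summed primitive streak markers (TBXT, listed as T, EOMES and MIXL1) were at 1.05 to 1.16 CPM at t0 and reached 2639 CPM in BA at 42 h. In BA at 24 h their sum was 929.7 CPM in replicate 1 but 58.7 and 66.4 CPM in replicates 2 and 3, and at 48 h it was 1764 CPM in replicate 1 but 108 and 110.2 CPM in the others. The 6 fibroblast markers summed to 155 to 259.7 CPM at t0, 144 to 228 in E8, 151 to 422 in E6 and 170 to 1016 in BA, mostly COL1A1 and COL1A2, with DCN at 0 in 19 libraries and LUM at 0 in 11. The fibroblast markers did not move together in BA. By the slopes over 6 to 42 h described below, PDGFRA (at most 205 CPM in any library) and COL1A2 rose by 4.78 and 2.06 log2 units per 24 h. COL1A1 had a slope of -1.40. The part of any marker list in the results was not tested. In these bulk samples, fewer cells of a type and less RNA per cell cannot be told apart.

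The contrast that chose the genes, E8 at 48 h against t0, gave the following levels. PNRC1 was at 5.08, 7.81 and 6.70 CPM at t0 (replicates 1, 2 and 3; mean 6.53 ± 1.37 SD, n = 3) and at 20.8, 31.6 and 27.3 CPM in E8 at 48 h (26.6 ± 5.44, n = 3). The log2 difference within a replicate number was 2.04, 2.02 and 2.03, which were alike in size. Here and below, libraries of the same number are not shown to be pairs. PIK3IP1 was at 1.94, 1.71 and 1.76 CPM at t0 (1.80 ± 0.122, n = 3) and at 4.73, 17.5 and 17.3 CPM in E8 at 48 h (13.2 ± 7.31, n = 3). Its log2 difference was 1.29 in replicate 1 and 3.36 and 3.30 in replicates 2 and 3. ABTB1 was at 3.77, 4.33 and 4.75 CPM at t0 (4.29 ± 0.491, n = 3) and at 8.71, 19.0 and 21.8 CPM in E8 at 48 h (16.5 ± 6.90, n = 3). As for PIK3IP1, its difference was smaller in replicate 1, at 1.21, than in replicates 2 and 3, at 2.13 and 2.20. TXNIP was at 55.8, 16.6 and 22.6 CPM at t0 (31.7 ± 21.1, n = 3) and at 40.6, 52.1 and 61.0 CPM in E8 at 48 h (51.2 ± 10.2, n = 3). The 2 groups overlapped for TXNIP: it was lower at 48 h in replicate 1, with a log2 difference of -0.46, and higher in replicates 2 and 3, by 1.65 and 1.43. Replicate 1 of t0 held the highest TXNIP level of the 3 t0 libraries.

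KLHL24 and YPEL3 were higher in E8 at 48 h than at t0 in each replicate number. KLHL24 was at 18.2, 10.3 and 9.17 CPM at t0 and at 33.5, 30.6 and 36.2 CPM in E8 at 48 h. YPEL3 was at 2.78, 12.2 and 12.2 CPM at t0 and at 5.64, 40.2 and 37.2 CPM in E8 at 48 h. The YPEL3 groups overlapped because its level followed the replicate number: the mean of replicates 2 and 3 was 3.47 to 6.87 times replicate 1 in all 5 replicated groups. KLHL24 went the other way, with replicates 2 and 3 at 0.367 to 0.996 times replicate 1. PNRC1 was steadier, at 1.35 to 1.51 times.

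By fully separated groups, PNRC1, PIK3IP1, ABTB1 and KLHL24 were higher in E8 at 48 h than at t0, which is 4 of 6 genes where 10.1% of all 21554 genes tested were separated upward. Nothing is read from that count, since the contrast chose the genes. The same 4 genes were separated upward in E6 at 48 h (background 13.1%) and in BA at 48 h (background 11.5%), and these comparisons use the same t0 libraries. In BA at 24 h, PNRC1, PIK3IP1 and ABTB1 were separated upward (background 9.39%) and TXNIP downward (background 9.46%). TXNIP was at 15.8, 10.2 and 14.0 CPM in BA at 24 h, below every t0 library. In the authors' deposited table, whose header does not name the reference group, the log2 fold change for E8 at 48 h was 1.91 for PNRC1, 2.29 for PIK3IP1 and 0.53 for TXNIP. In that authors' deposited table TXNIP had negative values in BA, -0.98 at 24 h and -0.60 at 48 h, and a positive one in E6 at 48 h, 0.98. By CPM, TXNIP at 48 h overlapped t0 in both media. Its log2 differences from t0 in replicates 1, 2 and 3 were -2.79, 0.51 and 0.31 in BA at 48 h. In E6 at 48 h they were -0.01, 2.20 and 1.86.

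**Figure D1:**
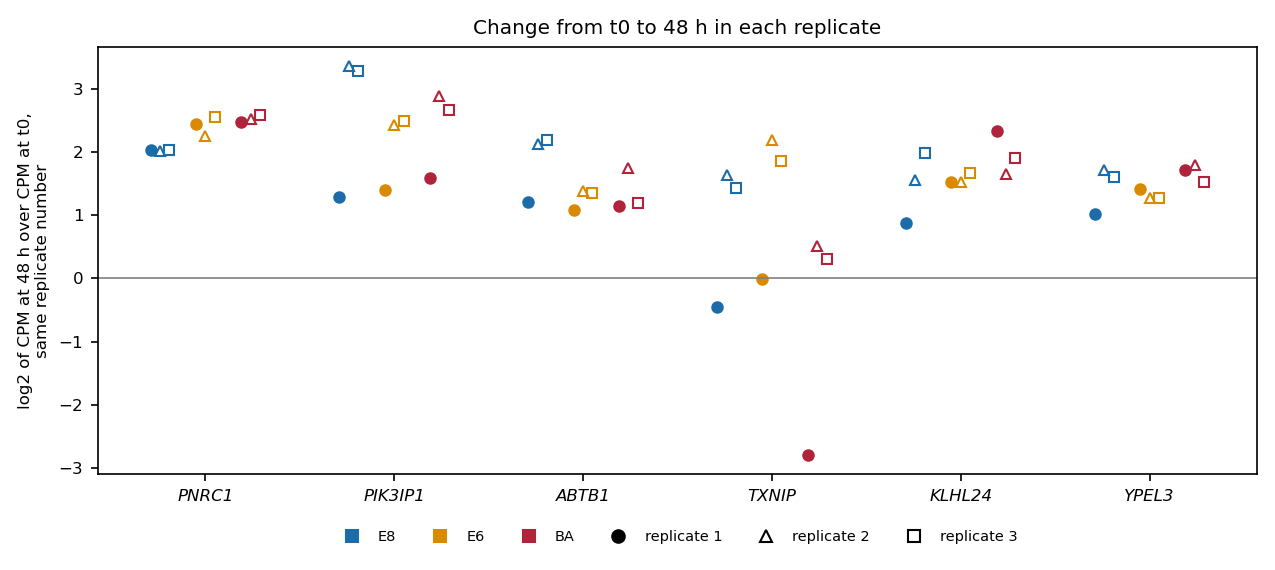
Log2 ratio of CPM at 48 h to CPM at t0 within the same replicate number, for each gene (horizontal axis) in E8, E6 and BA, with replicates 1, 2 and 3 as circles, triangles and squares. PNRC1 lies between 2.02 and 2.59 in all 9 points, whereas TXNIP runs from -2.79 in BA replicate 1 to 2.20 in E6 replicate 2.

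The choice of genes does not name the hourly libraries, but it was made with earlier results of these data known. Tests in these libraries are therefore not shown to be free of the choice. The hourly libraries show how each gene moved between 6 and 42 h. They hold 7 libraries per medium, 21 in all, 1 per hour and medium, with no replicate at a given hour. The lowest count of any of the 6 genes in any library was 37 reads (PIK3IP1), where counting error alone is 16.4%. For KLHL24 it was at most 7.25%. PNRC1 began at 7.25, 6.97 and 6.27 CPM at 6 h in E8, E6 and BA, and ended at 16.7, 19.8 and 33.1 CPM at 42 h. Between these hours it stayed within 8.58 and 12.6 CPM in E6 and within 8.64 and 11.5 CPM in BA from 12 to 36 h. In E8, PNRC1 was at 15.5 CPM at 18 h and 21.9 CPM at 36 h, both in libraries that stood apart by CDH1, against 12.6 CPM at 24 h and 8.78 CPM at 30 h. KLHL24 was close to 22 CPM at 6 h in all 3 media (22.4, 22.0 and 22.3 CPM in E8, E6 and BA) and was at its highest at 42 h in each, with 43.1, 53.7 and 60.2 CPM. Its lowest value, 12.0 CPM, was in E6 at 18 h, another library that stood apart.

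TXNIP was lower after 6 h than at 6 h in all 3 media. It was at 53.5, 58.3 and 51.4 CPM at 6 h in E8, E6 and BA, near the 55.8 CPM of t0 replicate 1. The lowest values were 26.5 CPM at 18 h in E8, 23.4 CPM at 24 h in E6 and 10.9 CPM at 36 h in BA. E8 and E6 were then back at 40.6 and 55.3 CPM by 48 h in replicate 1, while BA was at 8.05 CPM. PIK3IP1 took a course of its own in BA: 6.96 CPM at 6 h, 12.0 at 12 h, 8.28 at 18 h and 9.51 at 24 h, then 4.99 at 30 h, 3.03 at 36 h and 4.01 at 42 h. Over the same hours PIK3IP1 stayed within 2.36 and 5.6 CPM in E8 and within 2.65 and 5.69 CPM in E6. ABTB1 kept between 4.97 and 9.13 CPM over the 21 libraries. Both ends lay in BA, 9.13 CPM at 18 h (95% exact counting interval 7.73 to 10.7) and 4.97 CPM at 36 h (3.95 to 6.16), so they differed by more than counting error. YPEL3 ran from 3.58 CPM in E6 at 30 h to 10.99 CPM in BA at 42 h.

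**Figure D2:**
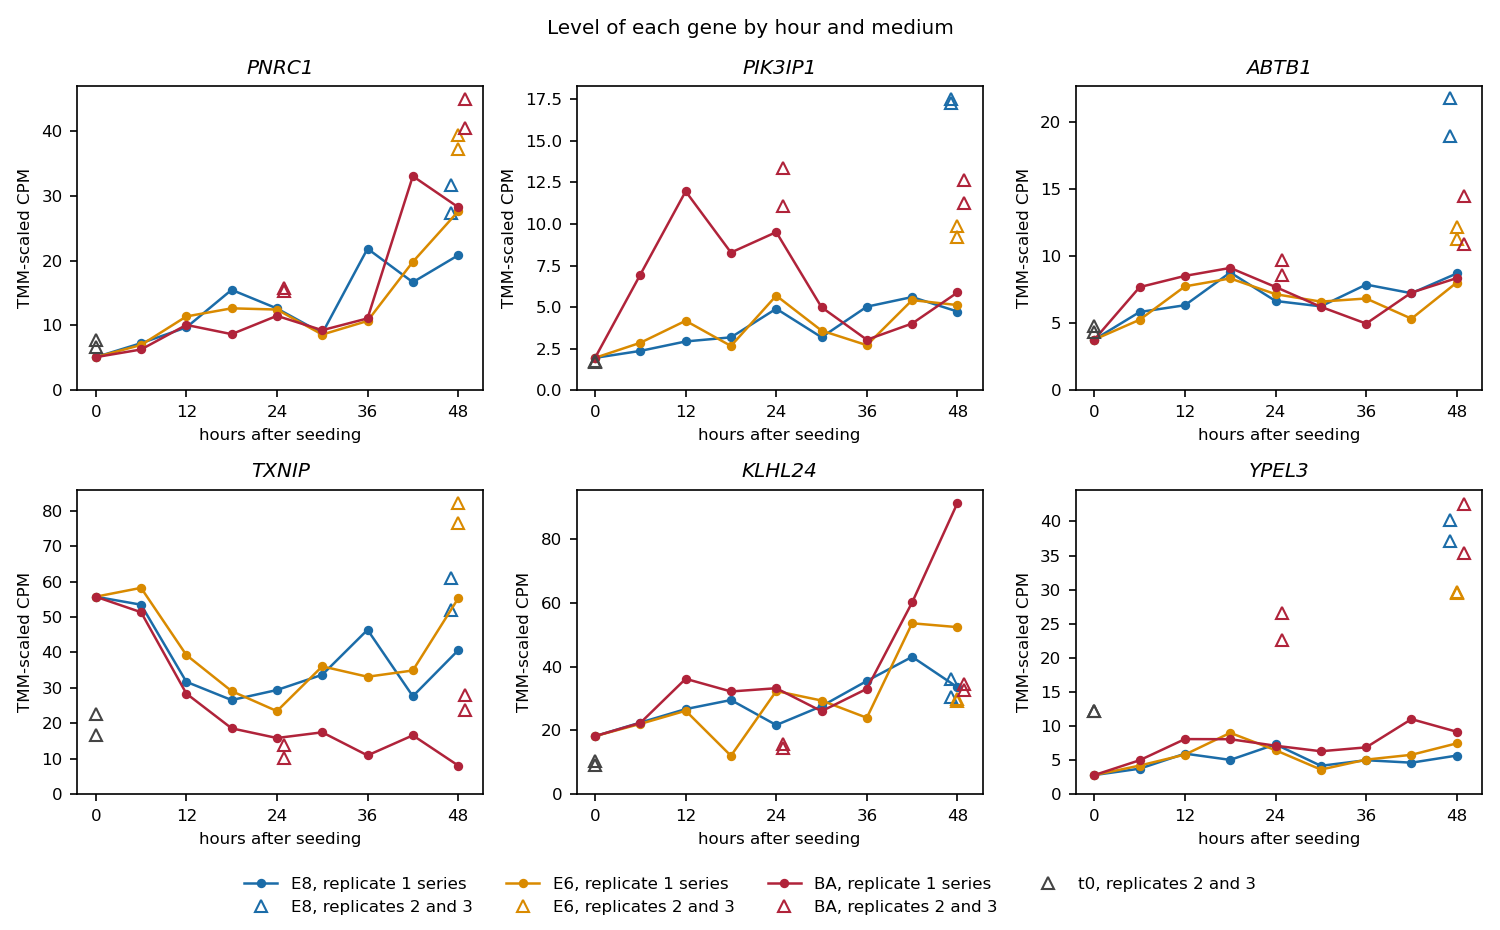
TMM-scaled CPM of the 6 genes (1 panel each) against hours after seeding in E8, E6 and BA; filled circles joined by lines are replicate 1 and the single libraries, starting from t0 replicate 1, and open triangles are replicates 2 and 3. TXNIP in BA lies under E8 and E6 at all 7 hours from 6 to 42 h, and YPEL3 triangles lie far above the circles at t0, 24 h and 48 h.

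A straight line on the log2 scale was fitted over 6 to 42 h within each medium, with the edgeR quasi-likelihood test and Benjamini-Hochberg adjustment over 18005 genes. The spread in this fit is the departure of single libraries from the line, so a course that bends adds to it. Absent calls therefore do not show absent change. In E8, 0 of the 6 genes passed an adjusted p of 0.05. The whole table held no call there either (background 0%), with 484 genes at an unadjusted p under 0.05 and 6 genes called by DESeq2. PNRC1 had a slope of 0.77 ± 0.33 (SE) log2 units per 24 h in E8 and PIK3IP1 one of 0.78 ± 0.32, both with an adjusted p of 1. Without the 4 libraries that stood apart, these slopes in E8 were 0.64 and 0.73. The E8 slope of TXNIP was -0.20 ± 0.28, where the chosen contrast had its mean higher at 48 h. In E6, 0 of 6 genes passed (background 0.00555%, 1 gene of 18005, with 580 at an unadjusted p under 0.05 and 9 called by DESeq2). The steepest E6 slope among the 6 was that of KLHL24, 0.72 ± 0.28 per 24 h with an adjusted p of 0.98 (edgeR).

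In BA, 3 of 6 genes passed, where 14.4% of all genes did. PNRC1 rose by 1.21 ± 0.30 log2 units per 24 h (edgeR adjusted p = 0.00866), a 2.32-fold rise per 24 h. That slope rests on the 42 h library: without it the PNRC1 slope was 0.45 (adjusted p = 0.616). BA at 42 h also held SLC16A3 at 225 CPM and BNIP3 at 235 CPM, against 24.6 and 22.0 CPM at 36 h, and the part of these in the PNRC1 value was not tested. TXNIP fell by 1.10 ± 0.27 log2 units per 24 h in BA (edgeR adjusted p = 0.0085). Most of the difference lay between 6 h and 18 h, when TXNIP in BA was at 51.4 and 18.6 CPM. Without the 6 h library the TXNIP slope was -0.66 (adjusted p = 0.253), and without the 4 libraries that stood apart it was -1.57 (adjusted p = 0.000437). TXNIP in BA replicates 2 and 3 was instead higher at 48 h (23.7 and 28.0 CPM) than at 24 h (10.2 and 14.0 CPM). The t0 libraries of replicates 2 and 3 were at 16.6 and 22.6 CPM, against 55.8 CPM in t0 replicate 1. PIK3IP1 fell by 1.02 ± 0.32 log2 units per 24 h in BA (edgeR adjusted p = 0.0362). Like every slope given here, it rests on the replicate 1 series alone. In BA replicates 2 and 3, PIK3IP1 was at 11.1 and 13.4 CPM at 24 h and at 12.7 and 11.2 CPM at 48 h. Over all 3 replicates its log2 difference between 24 and 48 h in BA was -0.17 ± 0.45 and did not pass. The PIK3IP1 call was lost when any 1 of 5 of the 7 BA libraries was left out, with an adjusted p of up to 0.157, and without the 4 libraries that stood apart (-1.06, adjusted p = 0.105). ABTB1, KLHL24 and YPEL3 had BA slopes of -0.30 ± 0.19, 0.58 ± 0.28 and 0.39 ± 0.27, none of which passed. Of the 6 pluripotency markers, 4 fell over the same hours in BA and none rose. SOX2 fell by 3.18 ± 0.38 log2 units per 24 h, NANOG by 1.5 ± 0.26 and DNMT3B by 0.49 ± 0.12 (edgeR adjusted p = 5.77e-06, 0.000411 and 0.00672). Their part in the BA slopes of the 6 genes was not tested.

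Whether slopes differed between media was tested directly. Between E6 and E8, 0 of 6 genes passed (background 0%, with 131 genes at an unadjusted p under 0.05 and 0 by DESeq2). Between BA and E6, 0 of 6 passed, where 4.65% of genes did. The largest difference was that of PIK3IP1, -1.34 ± 0.45 log2 units per 24 h (edgeR adjusted p = 0.109). Without the BA library at 6 h that PIK3IP1 difference passed (-1.78, adjusted p = 0.0227), as it did with DESeq2 (adjusted p = 0.0456). The difference for TXNIP was -0.74 ± 0.39 (adjusted p = 0.407), and -1.15 (adjusted p = 0.0496) without the 4 libraries that stood apart. By edgeR, the 3 BA slopes that passed are therefore not shown to differ from those in E6 in the full set of libraries.

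The mean level over the same 7 hours was then compared between media, with the hour as a factor. The spread here is how far the differences between media varied from hour to hour, so a difference that changes with time adds to it. Between E6 and E8, 0 of 6 genes passed (background 0%, with 255 genes at an unadjusted p under 0.05 and 0 by DESeq2). The log2 differences of the 6 genes lay between -0.18 and 0.12, with standard errors of 0.13 to 0.28. Between BA and E6, 3 of 6 genes differed, where 26.3% of all genes did, so a call there is common. TXNIP was lower in BA by a log2 difference of -0.74 ± 0.18 (edgeR adjusted p = 0.00513), that is 0.601 times E6. It was below E6 and below E8 at 7 of 7 hours, with the smallest ratio, 0.329 of E6, at 36 h. The TXNIP call held in each of the 14 fits that left out 1 of the BA or E6 libraries, with an adjusted p of up to 0.0164. PIK3IP1 was higher in BA by 0.87 ± 0.28 (edgeR adjusted p = 0.0276), or 1.83 times E6, and was above E6 at 6 of 7 hours, by up to 3.12 times at 18 h. At 42 h PIK3IP1 in BA was at 0.74 times E6. The PIK3IP1 call was lost in 8 of 14 such fits, with an adjusted p of up to 0.0834, and without the 4 libraries that stood apart it was 0.93 (adjusted p = 0.0029). YPEL3 was higher in BA by 0.43 ± 0.14 (edgeR adjusted p = 0.0338), at 6 of 7 hours, and its call was lost in 9 of 14 fits (up to 0.118). PNRC1, ABTB1 and KLHL24 had differences of 0.03 ± 0.19, 0.15 ± 0.13 and 0.32 ± 0.18, none past the threshold.

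**Figure D3:**
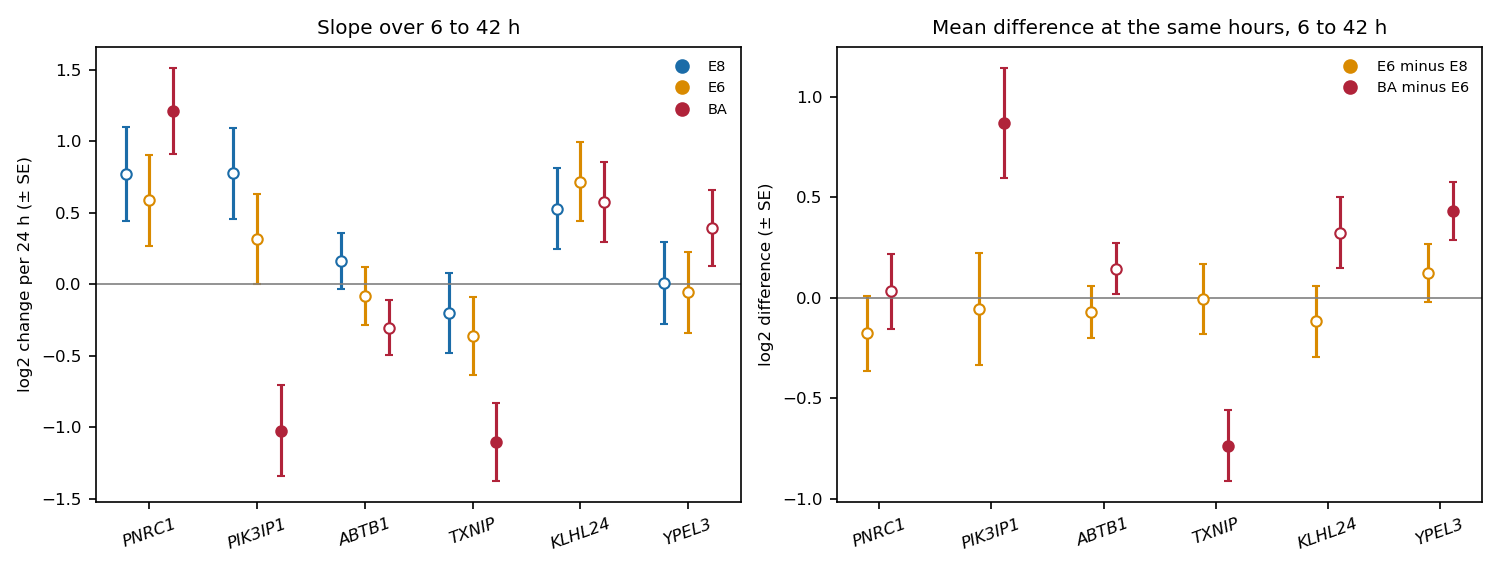
Left, slope of each gene over 6 to 42 h in log2 units per 24 h in E8, E6 and BA; right, mean log2 difference between media at the same hours; bars are standard errors, and filled circles mark an edgeR adjusted p below 0.05. The filled circles are PNRC1, PIK3IP1 and TXNIP in BA on the left, and PIK3IP1, TXNIP and YPEL3 for BA minus E6 on the right.

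At 48 h the added factors can be judged with 3 replicates on each side. None of the 6 genes passed between BA and E6 at 48 h (0 of 6, where 3.52% of 21554 genes did; 3348 genes had an unadjusted p under 0.05, and DESeq2 called 1 of the 6). TXNIP was at 8.05, 23.7 and 28.0 CPM in BA and at 55.3, 76.5 and 82.2 CPM in E6. Every BA library lay below every E6 library, as did 9.65% of all genes. The log2 difference of TXNIP was -1.85 ± 0.50 (edgeR adjusted p = 0.0697), with -2.78, -1.69 and -1.55 in replicates 1, 2 and 3. Replicate 1, with the lowest TXNIP level in BA, also had the highest streak marker sum, given above, whose part in this difference was not tested. With the replicate number as a block, TXNIP passed (-1.84 ± 0.49, edgeR adjusted p = 0.0205). It also passed with DESeq2 (adjusted p = 0.00669) and in replicates 2 and 3 alone (-1.67 ± 0.17, adjusted p = 3.45e-05). Leaving out 1 library in turn gave -2.20 to -1.48, with an adjusted p of 0.0862 to 0.19. TXNIP was also lower in every BA library at 48 h than in every E8 library at 48 h, as were 8.36% of genes, a comparison that holds a group used in choosing the genes. PNRC1 overlapped between these media at 48 h, with 28.3, 45.0 and 40.5 CPM in BA and 27.6, 37.2 and 39.4 CPM in E6 (log2 difference 0.13 ± 0.24, adjusted p = 0.949). The other 4 genes had log2 differences of 0.10 to 0.55 with standard errors of 0.32 to 0.82.

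Between 24 and 48 h in BA, 1 of 6 genes passed, where 0.455% of all genes did. PNRC1 was at 11.5, 15.8 and 15.2 CPM at 24 h (14.2 ± 2.34, n = 3) and at 28.3, 45.0 and 40.5 CPM at 48 h (37.9 ± 8.65, n = 3). Every 48 h library lay above every 24 h library (6.68% of genes did so). PNRC1 rose by 1.45 ± 0.24 log2 units, 2.72-fold (edgeR adjusted p = 0.0255). The replicate differences were 1.30, 1.52 and 1.41. The PNRC1 call was lost when any 1 of 5 of the 6 libraries was left out, all but BA at 48 h replicate 1, with an adjusted p of up to 0.109 and a log2 difference of 1.31 to 1.59. It was also lost with only the 6 libraries of both groups (1.46 ± 0.25, adjusted p = 0.242) and without the filter on low counts (1.44 ± 0.29, adjusted p = 0.0667). With the replicate number as a block, PNRC1 rose by 1.44 ± 0.097 (edgeR adjusted p = 4.26e-05). The mitochondrial share was lower at 48 h in every replicate, at 1.91, 4.14 and 4.99% at 24 h and 1.61, 2.50 and 2.75% at 48 h. SLC16A3 moved in the same libraries, from 12.3, 57.0 and 74.8 CPM at 24 h to 68.2, 317 and 268 CPM at 48 h, and the part of either in the PNRC1 value was not tested. KLHL24 was at 33.2, 14.4 and 15.7 CPM at 24 h and at 91.4, 32.7 and 34.5 CPM at 48 h. Its groups overlapped, because replicate 1 at 24 h was at the level of replicates 2 and 3 at 48 h, although each replicate was higher at 48 h. The KLHL24 difference was 1.37 ± 0.48 (edgeR adjusted p = 0.297), and 1.31 ± 0.25 with the replicate number as a block (adjusted p = 0.00923). TXNIP differed in direction between replicates, with log2 differences of -0.98 in replicate 1 and 1.21 and 1.01 in replicates 2 and 3. In replicates 2 and 3 alone, a setting chosen after seeing the data, 5 of 6 genes passed, all but PIK3IP1. A pass is common in that fit, where 7441 genes passed in all, against 98 in the main fit.

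The other genes of these pathways were read from lists chosen with earlier results of these data known. Of 18 tested genes that FOXO factors are known to raise, 4 were higher and 4 lower in BA than in E6 at matched hours, where 26.3% of all genes were called in either direction (median log2 difference 0.05, against -0.0014 over all genes). The largest was CCNG2, an atypical cyclin, at 1.99 ± 0.27 (edgeR adjusted p = 5.17e-05). GADD45A, a growth arrest and DNA damage gene, was higher by 1.10 ± 0.29, and BCL2L11, which encodes the cell death protein BIM, was lower by -0.52 ± 0.15. Of 21 PI3 kinase, AKT and mTOR components, 5 were higher and 3 lower (median 0.08). PIK3R1, the main regulatory subunit of PI3 kinase, was higher by 1.18 ± 0.22, and PIK3CB, a catalytic subunit, by 0.81 ± 0.12, while FOXO4 was lower by -0.86 ± 0.14. Of 12 MondoA, arrestin and thioredoxin genes, 1 was higher and 5 were lower (median -0.21). ARRDC4, the arrestin-family gene that MondoA raises alongside TXNIP, was lower by -0.79 ± 0.15 (edgeR adjusted p = 0.00105). The glycolytic enzyme HK2 was lower by -0.91 ± 0.21, and the glucose transporter SLC2A1 by -0.55 ± 0.18. Of 14 growth arrest genes, 2 were higher and 2 lower. The counts of these lists are to be read against the same 26.3%. Of 6 close relatives of the chosen genes, YPEL5 was higher by 0.80 ± 0.11. None of these lists held a call for E6 against E8 at matched hours, where the whole table held 0.

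Along time in BA, 4 of 18 FOXO-raised genes rose and 2 fell, where 14.4% of all genes passed in either direction (median slope 0.08, against 0.01 over all genes). MXI1, a MYC antagonist, rose by 1.40 ± 0.28 log2 units per 24 h. FOXO1 itself fell by 1.04 ± 0.18, ARRDC4 fell by 1.17 ± 0.30, and CDKN1A, the p21 inhibitor of cyclin-dependent kinases, fell by 1.23 ± 0.29 (edgeR adjusted p between 0.000409 and 0.00958). HK2 and SLC2A1, lower in BA than in E6 on average, rose with time in BA by 1.23 ± 0.31 and 1.11 ± 0.20 per 24 h. In E8 and in E6 no gene of these lists passed. At 48 h, BA against E6, ARRDC4 was lower by -1.77 ± 0.34 (edgeR adjusted p = 0.014), at 3.19, 5.43 and 5.59 CPM against 17.5, 16.0 and 15.3 CPM. YPEL4 and YPEL1, relatives of YPEL3, were lower by -1.42 ± 0.21 and -1.19 ± 0.27. The 6 close relatives had a median of 0.52, against 0.04 over all genes, so the list as a whole did not go with these 2. PDPK1, the kinase that activates AKT, was higher by 0.89 ± 0.16. These calls are to be read against the 3.52% of all genes called in this comparison. Between 24 and 48 h in BA, YPEL2 rose by 2.47 ± 0.43 (edgeR adjusted p = 0.032), at 7.08, 3.95 and 3.82 CPM and then 41.6, 17.1 and 21.2 CPM. YPEL2 was the 1 call among the 6 relatives there, where 0.455% of all genes passed and the list had a median of -0.04.

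Genes with the most similar course were ranked by Pearson's r of log2(CPM + 1) over the 21 libraries, among 11472 genes with a mean of at least 5 CPM. These values describe libraries that share media, hours and depth, and have no test. TXNIP was most like ARRDC4 (r = 0.947, and 0.95 without the 4 libraries that stood apart), then C5orf45 (0.925) and ACP6 (0.874). PNRC1 was most like ZNF395 (0.957), PFKFB4 (0.943) and KDM4B (0.942). KLHL24 was most like CREBRF (0.927), YPEL2 (0.904) and KIAA1324L (0.890). For YPEL3 the nearest were C9orf40 (0.886), STX5 (0.881) and PRMT2 (0.862). PIK3IP1 (ANO2 at 0.852, DENND3 at 0.813 and STARD13 at 0.805) and ABTB1 (PLA2G6 at 0.807, PRPF40B at 0.751 and SDC3 at 0.742) had less similar neighbours. Among the 15 pairs of the 6 genes themselves, the highest r over the 21 libraries was 0.623 (PNRC1 with KLHL24) and the lowest -0.648 (TXNIP with YPEL3). Within BA, over 7 libraries, PNRC1 with KLHL24 reached 0.947 and KLHL24 with YPEL3 0.959, where the 42 h library was the highest for all 3 genes. In E8 the KLHL24 and YPEL3 pair was at -0.238 and in E6 at -0.392.

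**Figure D4:**
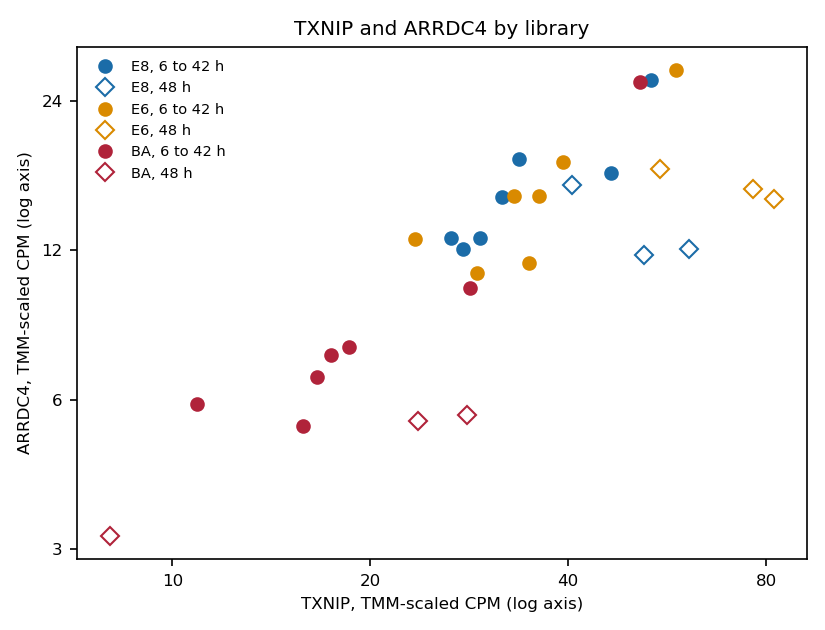
CPM of ARRDC4 against CPM of TXNIP, both on log axes, in the 21 libraries at 6 to 42 h (filled circles) and the 9 libraries at 48 h (open diamonds), coloured by medium. The BA circles from 18 to 42 h lie at 10.9 to 18.6 CPM of TXNIP, below every E8 and E6 library (23.4 CPM or more), and at 5.32 to 7.68 CPM of ARRDC4, and the E6 diamonds of replicates 2 and 3 lie to the right of the circles, at 76.5 and 82.2 CPM of TXNIP.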

How the data were processed

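The data are RNA-seq read counts of 58581 genes in 35 libraries, whole numbers that the authors deposited as counts. The submitters' processing notes name hg38, featureCounts and DESeq2 without versions, and the annotation release in the deposited table's name is GENCODE 23. The authors also deposited log2 fold changes and p-values from their DESeq2 test in a separate table with no named reference group, from which only fold changes of the 6 genes were printed. The aligner is not given in the sources used here. CPM values were computed with TMM factors over all 35 libraries. Library totals of 11793453 to 37191969 counts put the counting error of a single value of the 6 genes at 16.4% or less.

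The 3 models were fitted with edgeR 4.0.16 (quasi-likelihood F-test, filterByExpr; limma 3.58.1, R 4.3.3) across all genes: groups in the 15 replicated libraries, slopes per 24 h within medium, and medium plus hour, the last 2 over 21 libraries from 6 to 42 h. BA at 24 h entered these with replicate 1 only. A call is a Benjamini-Hochberg adjusted p below 0.05 over all genes tested. Standard errors of edgeR values were derived from the test, as the absolute log2 change divided by the square root of its F statistic. Contrasts with t0 or with E8 at 48 h, which the choice of genes used, had no test. The scripts were tested on simulated counts. Alternatives were DESeq2 size factors, no filter, the DESeq2 1.42.0 Wald test, a replicate block, only the compared groups, 12 to 42 h, log2 of hours, and leaving out each library. A further pair, replicates 2 and 3 alone and leaving out 4 libraries that stood apart, were chosen after seeing the data.

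Same-numbered libraries deviated from their group means together (r = 0.638 to 0.812 in 6 of 6 pairs). Replicates 2 and 3 did so with each other as well (r = 0.649 to 0.701), while replicate 1 went against both (r = -0.771 to -0.686). These values set replicate 1 apart from replicates 2 and 3 and do not show pairing by each number. The main fits held no replicate block, which was run as an alternative. No label states a shared day or batch. The genes, the 12 other lists and the naming rule were chosen with earlier results of these data known. The rule names the 6 genes everywhere, up to 3 called genes of at least 5 CPM per list and comparison by largest change, and the 3 genes most correlated with each.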

Additional observations from a re-analysis of the deposited data

How the results depend on the processing

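No value past the threshold changed sign under any alternative run here. Of 846 recomputed values of the 6 genes, 39 lost a call and 12 gained one. Another 57 had the other sign while past the threshold in neither fit, 18 of them for E6 against E8 at matched hours. For BA against E6 at 48 h (0 of 6 genes and 759 genes in all), the DESeq2 Wald test called 1 of the 6 and 1603 in all, and the fit on the compared groups alone called 76 in all. With the replicate block, 1 of the 6 and 4760 in all were called, and in replicates 2 and 3 alone 2 of the 6 and 7999 in all. For BA at 48 h against 24 h (1 of 6, 98 in all), no filter gave 0 of 6 and 65 in all, DESeq2 672 in all, and the compared groups alone 0 of 6 and 0 in all, with 1493 genes at an unadjusted p under 0.05 (edgeR). With the replicate block 2 of the 6 and 2158 in all were called, and in replicates 2 and 3 alone 5 of the 6 and 7441 in all. The block changed no other call of the 6 genes than those printed with the results. Genes with a slope in E8 (0) and E6 (1) numbered 4 and 4 without a filter, 6 and 9 by DESeq2, and 9 and 12 without the 4 libraries that stood apart. Over log2 of hours the E8 count was 2. Of the 6 genes in BA, 1 kept its slope call over 12 to 42 h, PIK3IP1 (2165 genes in all), and 1 without the 4 libraries, TXNIP (2672 in all). For the slope difference of BA and E6 (838 in all), DESeq2 called 1 of the 6 and 1191 in all. Leaving out the 4 libraries called 1 of the 6 and 1368 in all, and log2 of hours 460 in all. For BA against E6 at matched hours, 1 of the 6 was called over 12 to 42 h, TXNIP, and 4646 genes in all.

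Leaving out 1 library in turn gave 257 to 670 genes for BA against E6 at 48 h. For BA at 48 h against 24 h it gave 0 to 1 of the 6 and 3 to 175 in all. It gave 0 to 4 genes with a slope in E8, 0 to 4 in E6, and 1 to 3 of the 6 and 1797 to 2576 in all in BA. For the slope difference of BA and E6 it gave 0 to 1 of the 6 and 479 to 1202 in all. For BA against E6 at matched hours it gave 1 to 2 of the 6 and 3954 to 5162 in all. By Spearman's rho, 8 of the 18 genes named for a similar course stayed among the nearest 3. In replicate 1 and the single libraries, PIK3IP1, ABTB1 and YPEL3 had the lowest median counts of the 6 genes, so their single values there are the least precise.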

Other observations

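Some genes of the lists differed between BA and E6 in their slope over 6 to 42 h. GADD45A had a slope 1.63 ± 0.35 log2 units per 24 h higher in BA than in E6 (edgeR adjusted p = 0.0078), and FOXO1 one lower by -1.22 ± 0.25 (adjusted p = 0.00498). ARRDC3, another arrestin-family gene, had a slope lower by -1.09 ± 0.30 (adjusted p = 0.0409). ABTB2, the relative of ABTB1, fell by 1.73 ± 0.30 per 24 h in BA (adjusted p = 0.000376), while ABTB1 had -0.30 ± 0.19 and did not pass. Of 12 proliferation genes, 2 rose in BA and the other 10 did not pass, where 14.4% of all genes passed in either direction. CCNA2, which drives S phase and mitosis, rose by 0.34 ± 0.09 per 24 h and BUB1, a spindle checkpoint kinase, by 0.49 ± 0.13. At matched hours, where 26.3% of all genes were called, CCNA2 was higher in BA than in E6 by 0.21 ± 0.07. The replication helicase subunit MCM2 was lower by -0.23 ± 0.06, and no other proliferation gene of the list was called.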
